A study of Botryllus schlosseri with 78 samples.

Results

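Takeover, stage D of the budding cycle, was compared with the stages just before it, C1 and C2, in male colonies of the colonial tunicate Botryllus schlosseri. The libraries were chosen by title: 3 of stage D and 6 of stages C1 and C2, so 9 of the 77 libraries with values in the series. The RNA came from all cells of whole-colony tissue. Male colonies carry the genotype names M001, MADM and MDR, and each genotype gave 1 library at each stage. Stage D was therefore set against the mean of C1 and C2 of the same genotype, which makes 3 pairs. The labels name no treatment. They do not say whether the libraries of a genotype came from separate colonies or from pieces of one, so the p-values measure only the spread between these libraries. The 12 male libraries of stages A1, A2, B1 and B2 share the same genotypes and served for the estimate of the spread and for a second comparison.

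Botryllus colonies renew themselves in a repeating budding cycle. At takeover the adult zooids stop feeding and die by programmed cell death, phagocytes clear them, and the next generation of buds takes their place. The same animals carry the Fuhc locus, which decides whether touching colonies fuse or reject each other, and the fester receptors, which take part in that decision. Kinases, phosphatases, adaptors and small GTPases of the kind listed here relay signals from immune receptors in vertebrates.

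The table covers 137 transcripts: 4 products of the Fuhc locus, 19 signalling proteins, 45 named FF, taken to stand for fester family, and 69 named FcoR, which the series record traces to searches that started from fester. Each value is read as TPM (transcripts per 1000000, a level per transcript length) scaled by TMM (a factor per library that evens out composition). Values summed to between 1033313 and 1146147 in the D libraries and to between 884488 and 1165239 in the C libraries, so values are relative to the listed set and not to all RNA of the colony. In whole colonies, fewer cells of a type and less RNA per cell cannot be told apart. None of the marker names for germline, testis, muscle, haemocytes, vasculature or apoptosis matched a transcript of the table, so the makeup of the tissue could not be checked. Read depth is unknown, and near-identical receptor transcripts may have shared reads.

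Of the transcripts, 107 reached a value of at least 1 in at least 3 of the 9 libraries and were tested with limma on log2(value + 1), with genotype as a block. FuHc-Tm alone passed an adjusted p of 0.05 (1 of 107, 0.935%), and it fell. At an unadjusted p under 0.05 there were 10 transcripts (9.35%): 4 signalling proteins, 3 FcoR, 1 FF and 2 products of the Fuhc locus. The median log2 difference of D minus C over the tested transcripts was -0.0036. By genotype it was 0.00 in M001, -0.19 in MADM and 0.00 in MDR. These medians include differences of exactly 0 from transcripts absent in that genotype. Over the 62 transcripts at 1 or more in at least 2 of the 3 libraries of each genotype, it was 0.0459, -0.25 and 0.0855. All 10 transcripts with an unadjusted p under 0.05 were among these 62. In MADM, 69 tested transcripts were lower in D and 24 were higher, whereas in M001 33 were lower and 53 higher, and in MDR 38 were lower and 48 higher. The MADM D library summed to 1033313, below the 1110385 and 1165239 of its C1 and C2 libraries, while the D libraries of M001 and MDR summed to more than both of theirs. The part of these sums in the differences of single transcripts was not tested beyond the rescaled values given where they change a result.

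**Figure D1:**
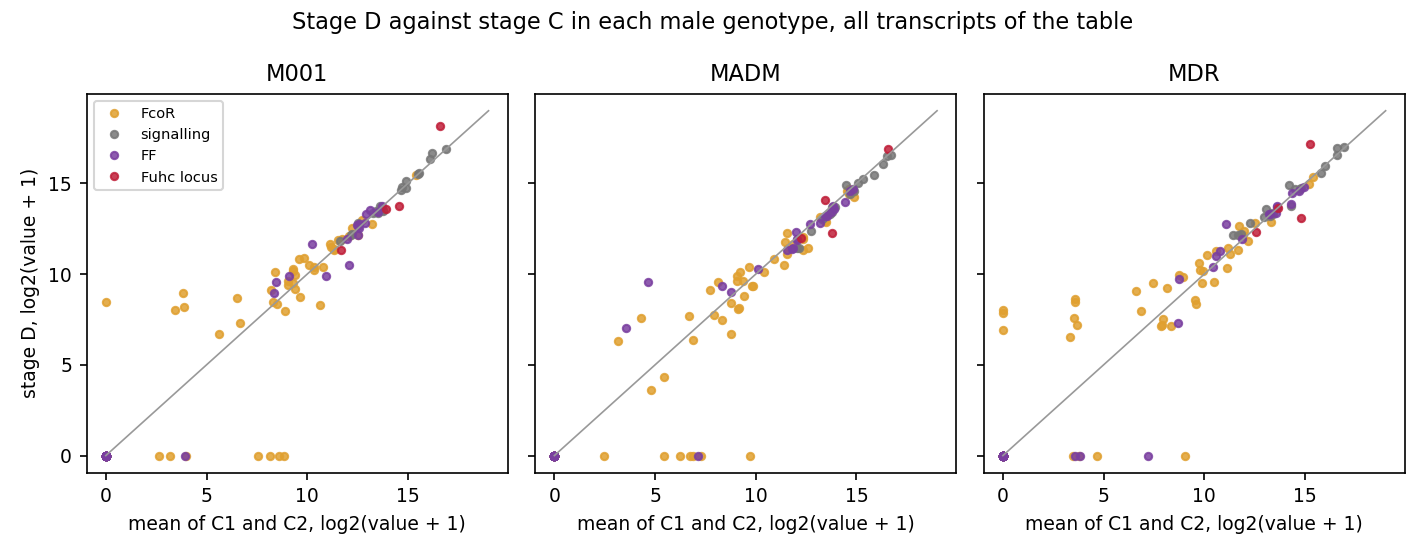
Level of every transcript in stage D (vertical axis) against the mean of C1 and C2 (horizontal axis), both as log2(value + 1), 1 panel per male genotype and 1 point per transcript. Most points lie along the diagonal of equal levels in each genotype, and the widest scatter is among transcripts of low value, including those listed at 0 on an axis.

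FuHc-Tm, by its name, is the product of the Fuhc locus that spans the membrane. It had 13838 in D, against 18062 in C1 and 31093 in C2, in M001. In MADM it had 4958 in D, against 13927 in C1 and 13989.7 in C2. In MDR it had 8680.01 in D, against 25558 in C1 and 32167 in C2. Each D library was below both C libraries of its genotype, and the 3 D libraries did not overlap the 6 C libraries, although the highest D value (13838, M001) lay just under the lowest C value (13927, MADM). FuHc-Tm averaged 9159 ± 4459.7 in D (SD, n = 3) and 22466 ± 8274 in C (SD, n = 6). The log2 difference was -1.33 ± 0.22 (SE; 95% interval -1.81 to -0.85), a level in D of 0.398 times that in C, with an adjusted p of 0.00486 (limma). Within genotypes it was -0.78 in M001, -1.49 in MADM and -1.72 in MDR.

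Over the whole cycle, stage C was the high point of FuHc-Tm. In the 12 libraries of stages A1 to B2 it ranged between 4900 and 13293, with a median of 8929.6, so all 6 C libraries lay above the 15 libraries of the other stages. Stage D differed from the mean of A and B by -0.092 ± 0.20 on the log2 scale (95% interval -0.53 to 0.35, limma adjusted p 0.986), so the data neither show a difference nor limit it beyond that interval. C2 minus C1 was 0.37 ± 0.26 (adjusted p 0.922). The call rests on the spread of all 21 male libraries and on MADM and MDR: the adjusted p was 0.122 in a fit on the 9 libraries, 0.794 on 1 value per genotype and stage, 0.142 without the genotype block, 0.0706 against C1 alone, 0.0556 without MADM and 0.667 without MDR. The log2 difference stayed between -1.61 and -1.13 in these and the other alternatives.

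BHF, a small protein encoded in the Fuhc locus and known from work on fusion and rejection, was the most abundant of the Fuhc products. It had 294426 in D, against 121340.4 in C1 and 78495 in C2, in M001. In MADM it had 121918 in D, against 80642 in C1 and 119697 in C2. In MDR it had 146884 in D, against 31932 in C1 and 47603 in C2. The 3 D values all lay above the 6 C values, but by little in MADM. BHF averaged 187743 ± 93229.9 in D (SD, n = 3) and 79952 ± 36463 in C (SD, n = 6), a log2 difference of 1.27 ± 0.34 (SE; 95% interval 0.54 to 2.01). The adjusted p was 0.129 (limma), so BHF did not pass the threshold. It passed in 2 of 19 alternatives. In 1, only the 52 transcripts at 1 or more in all 9 libraries were tested (adjusted p 0.0215). In the other, FcoR72 was left out and each library rescaled (1.15, adjusted p 0.0435). BHF did not pass in the other 17. The limma adjusted p was 0.313 in a fit on the 9 libraries, 0.794 on 1 value per genotype and stage, 0.322 without M001 and 0.723 without MDR. The log2 difference stayed between 0.95 and 1.75 in all 19. BHF made up 25.7% of the summed values of the M001 D library, 11.8% of the MADM D library and 12.9% of the MDR D library, against 3.06% to 13.0% in the C libraries. Without BHF, the values of the other transcripts summed to 851721 in D, against 811975 in C1 and 805993 in C2, in M001. They summed to 911395 in D, against 1029743 and 1045542, in MADM, and to 994373 in D, against 1012760 and 953086, in MDR.

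The early stages of the cycle held high BHF values too. Stage A1, which follows takeover, had 181212 in M001, 213319 in MADM and 71924 in MDR, and the median of the 12 libraries of A1 to B2 was 62266. D minus the mean of A and B was 1.24 ± 0.31 on the log2 scale (limma, unadjusted p 0.00152, adjusted p 0.162), which also did not pass. This comparison uses the same D libraries as the one with stage C.

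**Figure D2:**
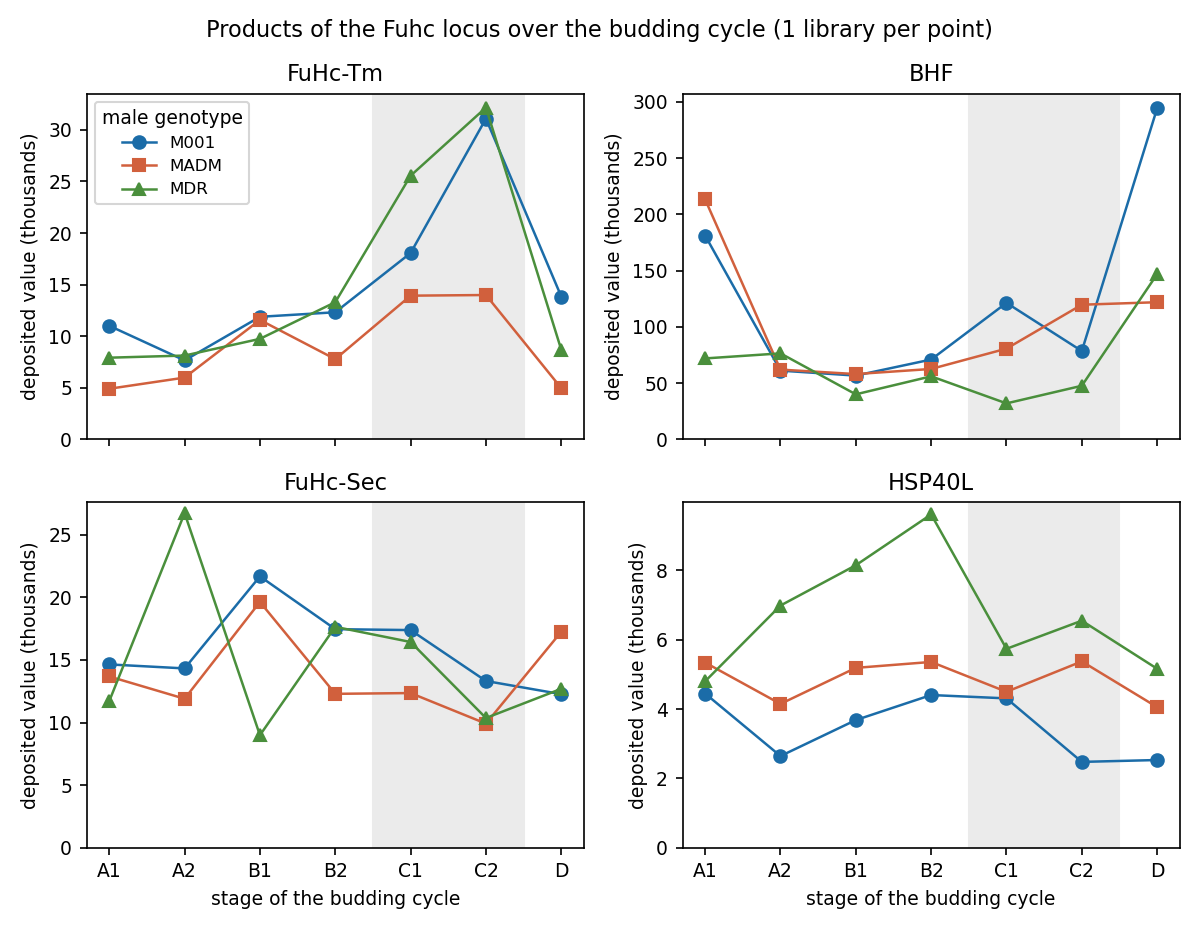
Deposited values of the 4 products of the Fuhc locus (vertical axes) at the 7 stages of the budding cycle (horizontal axes), 1 line per male genotype and 1 library per point, with stages C1 and C2 shaded. FuHc-Tm peaks in the shaded stages in all 3 genotypes and is between 4958 and 13838 in D, and BHF is at 121918 or more in every D library.

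The ratio of BHF to FuHc-Tm within a library does not depend on how the library was scaled. It was chosen after both values were seen and is given as a description. The ratio was 21.3 in D, against 6.72 in C1 and 2.52 in C2, in M001. It was 24.6 in D, against 5.79 in C1 and 8.56 in C2, in MADM. In MDR it was 16.9 in D, against 1.25 in C1 and 1.48 in C2. The lowest D ratio was thus above the highest C ratio, while the 12 libraries of A1 to B2 ranged between 4.11 and 43.5 with a median of 8.02.

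**Figure D3:**
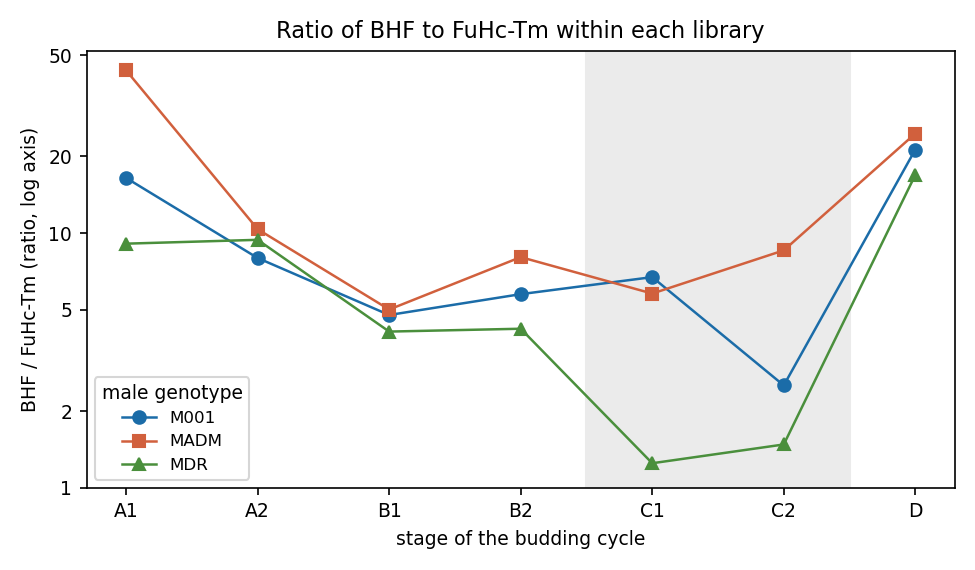
Ratio of BHF to FuHc-Tm within each library (vertical axis, log scale) at the 7 stages (horizontal axis), 1 line per male genotype, with stages C1 and C2 shaded. The ratio is between 16.9 and 24.6 in D and between 1.25 and 8.56 in C1 and C2.

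The other products of the locus moved less. FuHc-Sec, named as the secreted product, averaged 14071 ± 2763 in D (SD, n = 3) and 13296 ± 3080.3 in C (SD, n = 6). Its log2 difference was 0.10 ± 0.29 (95% interval -0.53 to 0.72), and the sign differed between genotypes: -0.31 in M001, 0.64 in MADM and -0.040 in MDR. FuHc-Sec was 0.886, 3.48 and 1.46 times FuHc-Tm in the D libraries of M001, MADM and MDR, and between 0.322 and 0.962 times in the C libraries. HSP40L, a protein named for its likeness to the heat shock co-chaperone HSP40, had a lower level in D in 3 of 3 genotypes, with a log2 difference of -0.30 ± 0.20 (95% interval -0.72 to 0.13, limma adjusted p 0.672). In M001 the D value of HSP40L, 2533, lay between its C1 value of 4311 and its C2 value of 2479.

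None of the 19 signalling proteins passed the test (limma; 4 at an unadjusted p under 0.05). Their log2 differences lay between -0.34 and 0.38 with a median of -0.0036, the same as over all tested transcripts. The 95% interval lay within 1 log2 unit of no change for all 19 and within 0.5 for 15. In MADM 18 of the 19 were lower in D, against 7 in M001 and 8 in MDR. Of the 62 transcripts counted above as present in each genotype, 47 were lower in MADM, 25 in M001 and 27 in MDR.

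Among the kinases, the yes-like kinase, a relative of the Src family that acts early in receptor signalling, had 25722 in D against 24035 and 26742 in C1 and C2 of M001. It had 30407 in D against 23394 and 22294 in MADM, and 30844 in D against 18682 and 19158 in MDR. D was above both C libraries in MADM and MDR and between them in M001, and the log2 difference of 0.38 ± 0.15 gave an adjusted p of 0.281 (limma). Against the mean of A and B it was 0.23 ± 0.13 (limma adjusted p 0.828). PI3K, a lipid kinase, differed by 0.20 ± 0.10 (adjusted p 0.532), mainly in MDR, where it had 12495 in D against 8716 and 8630.3 in C1 and C2. SYK, the kinase that binds phosphorylated receptor tails in vertebrates, differed by -0.0036 ± 0.18, with -0.027 in M001, -0.38 in MADM and 0.40 in MDR. PKC, activated by lipid messengers, differed by 0.19 ± 0.17. In the cascade of Raf, MEK and ERK the log2 differences were -0.047 ± 0.14, -0.084 ± 0.079 and -0.15 ± 0.075. ERK passed as lower after each library was rescaled to a common sum, with a log2 difference of -0.27, and with FcoR72 also left out (-0.28). With BHF left out before rescaling, ERK did not pass (-0.12, limma adjusted p 0.318). Without MADM the unscaled difference was -0.025. PAK1, a kinase downstream of Rac, had 10549, 10052 and 10323 in D of M001, MADM and MDR, below all 6 C libraries, which ranged between 10988 and 13669. Its log2 difference was nonetheless small, -0.21 ± 0.10, with an adjusted p of 0.529 (limma). Against the mean of A and B it was -0.091 ± 0.096 (limma adjusted p 0.965). The D value lay within the values of A1 to B2 in M001 and MDR and below them in MADM.

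Both phosphatases had lower means in D. SHP2, a tyrosine phosphatase recruited to receptor tails, had 12046 in D against 15825 and 12373 in C1 and C2 of M001. It had 13455 in D against 17608 and 14278 in MADM, and 13670.1 in D against 22784 and 17953 in MDR. D was below both C libraries in each genotype, but the lowest C value (12373, M001) was below the D values of MADM and MDR. The log2 difference was -0.34 ± 0.12 (95% interval -0.60 to -0.078, limma unadjusted p 0.0147, adjusted p 0.281). C2 minus C1 of SHP2 was of the same size, -0.33 ± 0.14 (unadjusted p 0.0325, adjusted p 0.922), and D minus the mean of A and B was -0.11 ± 0.11. SHIP, which removes a phosphate from the lipid that PI3K makes, differed by -0.20 ± 0.14.

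Ras and Rac, small GTPases that switch on kinase cascades, were among the highest values of the table. Ras had 106304 in D against 78684 and 70085 in C1 and C2 of M001. It had 93619 in D against 91992 and 97053 in MADM, and 125115 in D against 101359.7 and 92817 in MDR. D was above both C libraries in M001 and MDR and between them in MADM. The log2 difference was 0.29 ± 0.084 (95% interval 0.11 to 0.47, limma unadjusted p 0.00418, adjusted p 0.149). With BHF left out of the table and each library rescaled, an alternative added after the values were seen, Ras passed at 0.32 (adjusted p 0.00226). Rac differed by -0.038 ± 0.12.

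Of the adaptors and exchange factors, Shc had 27504 in D against 32279.9 and 28793 in C1 and C2 of M001, 21845 in D against 26346 and 26046 in MADM, and 27017 in D against 30538 and 27286 in MDR. D was below both C libraries in each genotype, by a log2 difference of -0.17 ± 0.066 (limma unadjusted p 0.0245, adjusted p 0.292). Against the mean of A and B, Shc differed by -0.039 ± 0.061 (limma adjusted p 0.965). Grb2, Sos and VAV, which link receptors to Ras and Rac, differed by 0.010, 0.010 and 0.011, with standard errors of 0.11, 0.17 and 0.11. PLC-g, which makes the second messengers that open calcium stores, differed by -0.0037 ± 0.21, and its values by genotype were 0.21 in M001, -0.71 in MADM and 0.49 in MDR. The transcription factors NF-kB and NFAT differed by 0.038 ± 0.14 and 0.061 ± 0.27.

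**Figure D4:**
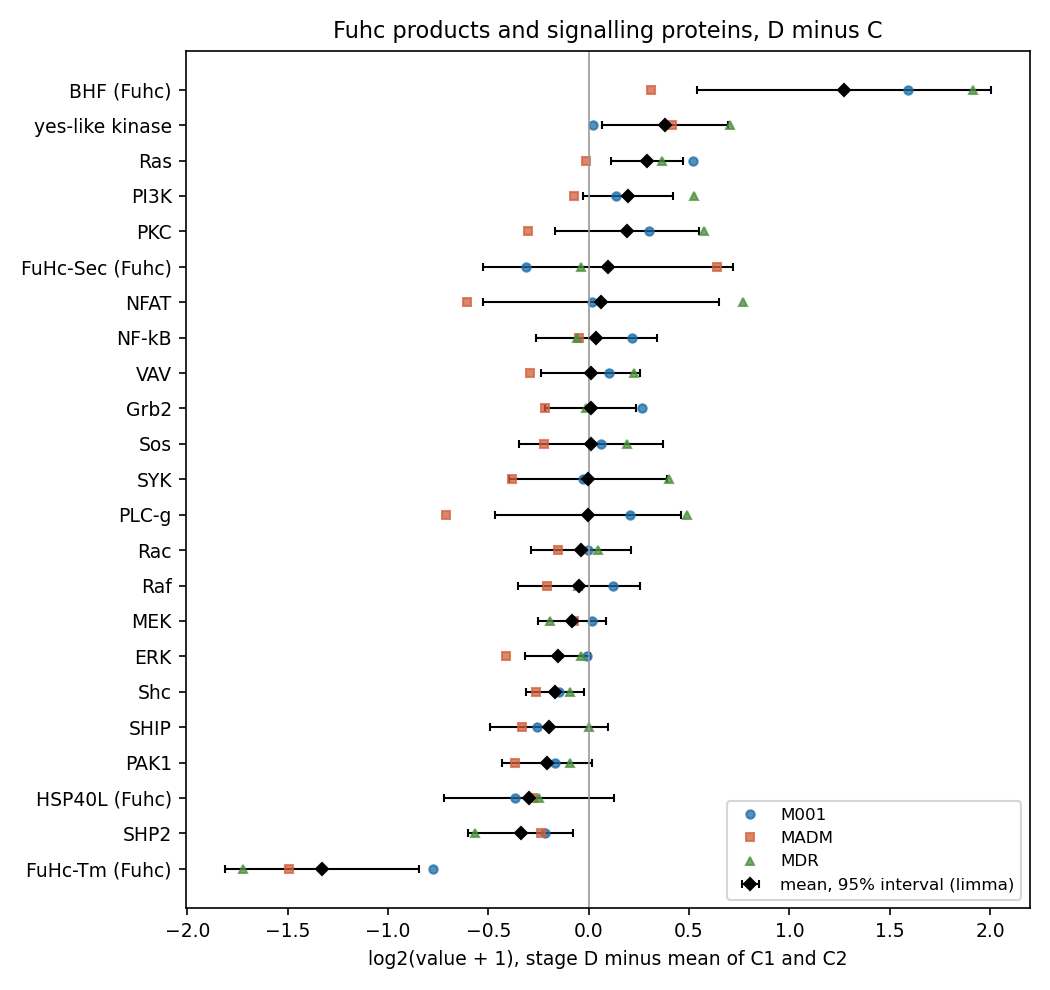
Log2 difference of D minus the mean of C1 and C2 (horizontal axis) for the products of the Fuhc locus and the signalling proteins (rows), with the value in each male genotype and the mean with its 95% interval from limma. The signalling proteins lie between -0.34 and 0.38, inside the range set by FuHc-Tm at -1.33 and BHF at 1.27.

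None of the 28 FF transcripts tested passed (limma; 1 at an unadjusted p under 0.05), and their median log2 difference was -0.045. The other 17 of the 45 were below the filter. A transcript was taken as held by a genotype where it had a value of at least 1 in at least 2 of its 3 libraries of C1, C2 and D. By that rule 12 FF were held by all 3 genotypes, 4 by 2, 12 by 1 and 17 by none. Over the 12 held by all 3, the median log2 difference was 0.0535. The median over all 28 includes differences of 0 from genotypes without the transcript, so its sign depends on the set taken. For FF absent from a genotype, these 0 differences also enter the fitted mean. A test not passed therefore does not limit the change in the genotypes that hold them. The 5 FF with the highest mean were FF17, FF27, FF4, FF7 and FF3. FF17 had 742 in D against 535 and 222 in C1 and C2 of M001, 26322 in D against 28916 and 28927 in MADM, and 13817 in D against 13899.5 and 11032 in MDR. Its level thus differed far more between genotypes than between stages, and the log2 difference of D minus C was 0.38 ± 0.30. FF27 and FF4 were listed at 0 in all 3 libraries of M001. FF27 had 9269 in D against 10488 and 13407 in MADM and 28130.1 in D against 29995 and 32941 in MDR, lower than both C libraries in each. FF4 had 12218 in D against 15352 and 14579.5 in MADM, and 22329.8 in D against 24535 and 17380.2 in MDR. FF7 differed by 0.0012 ± 0.18 and FF3 by 0.17 ± 0.29.

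FF16 was the FF transcript with an unadjusted p under 0.05 (0.034, adjusted p 0.364, limma), and it is named here after its values were seen. It had 1474 in D against 4281 and 4279 in C1 and C2 of M001. It was listed at 0 in D against 247 and 79.7 in MADM, and had 157 in D against 232 and 742 in MDR. D was below both C libraries in each genotype, and in M001 and MDR also below the values of A1 to B2, which lay between 3675 and 5368 in M001 and between 512 and 759 in MDR. In MADM, FF16 was also listed at 0 in A2 and B2. The listed 0 makes the fitted difference of FF16 depend on the pseudocount, so none is given.

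Receptors held by 1 genotype can be followed only there, in 1 D library. Of these, 17 had a mean of at least 1000, and the 3 with the largest differences in size are named. FF31, held by M001, had 3263 in D against 1178 and 1209 in C1 and C2, a log2 difference of 1.45. In A1 to B2 of M001 it lay between 1600 and 4639, so D was within that range. FF29, also held by M001, had 10282 in D against 7428 and 8117, a difference of 0.41. FF23, held by MADM, had 15799 in D against 20835 and 23529, a difference of -0.49. The D value of FF23 was also within its values of A1 to B2, while that of FF29 lay above its own. The other 14 differed by -0.28 to 0.39. Of the 17, D was higher for 5 of 5 in M001, 2 of 7 in MADM and 4 of 5 in MDR. With 1 D library each, these differences have no replicate check. Of the 62 transcripts held by all 3 genotypes, D was higher for 37 in M001, 15 in MADM and 35 in MDR.

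None of the 56 FcoR transcripts tested passed (limma; 3 at an unadjusted p under 0.05), with a median log2 difference of 0.053. Their median standard error was 0.997, against 0.303 over all tested transcripts, and the 95% interval lay within 1 log2 unit of no change for 16 of the 56. For the rest the interval reached beyond a 2-fold change. A genotype at 0 in D, C1 and C2 added a difference of 0 to the fitted mean. For receptors absent from a genotype, the interval therefore does not limit the change in the genotypes that hold them. Another 13 of the 69 were below the filter. All 3 genotypes held 27 FcoR, 17 were held by 2, 13 by 1 and 12 by none. Over the 27 held by all 3, the median log2 difference was -0.0194. The 95% interval lay within 1 log2 unit of no change for 9 of them.

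FcoR44 had the smallest p among the FcoR that were higher in D. It had 5893 in D against 5388 and 4179 in C1 and C2 of M001, 3504 in D against 2926 and 2734 in MADM, and 6347 in D against 3399.8 and 3439.7 in MDR. D was above both C libraries in each genotype. The log2 difference was 0.50 ± 0.16 (95% interval 0.16 to 0.85, limma adjusted p 0.215). Against the mean of A and B it was 0.28 ± 0.15 (adjusted p 0.828).

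FcoR19 had 312 in D against 1990.1 and 1253 in C1 and C2 of M001. It was listed at 0 in D against 1075 and 664 in MADM, and at 0 in D against 867 and 318 in MDR. The D and C libraries did not overlap, although 312 in the M001 D library lay just under 318 in the MDR C2 library. The adjusted p was 0.281 (limma), and the fitted difference hung on the pseudocount, with -7.03 at 1 and -2.65 at 100. FcoR19 was also listed at 0 in 4 of the 12 libraries of A1 to B2. FcoR7 had 1188 in D against 1071 and 1579.7 in M001, 2520.3 in D against 5448 and 4822 in MADM, and 3634 in D against 5243 and 3968 in MDR. Its log2 difference was -0.49 ± 0.19 (adjusted p 0.281), with D between the C libraries in M001 and below both in MADM and MDR.

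**Figure D5:**
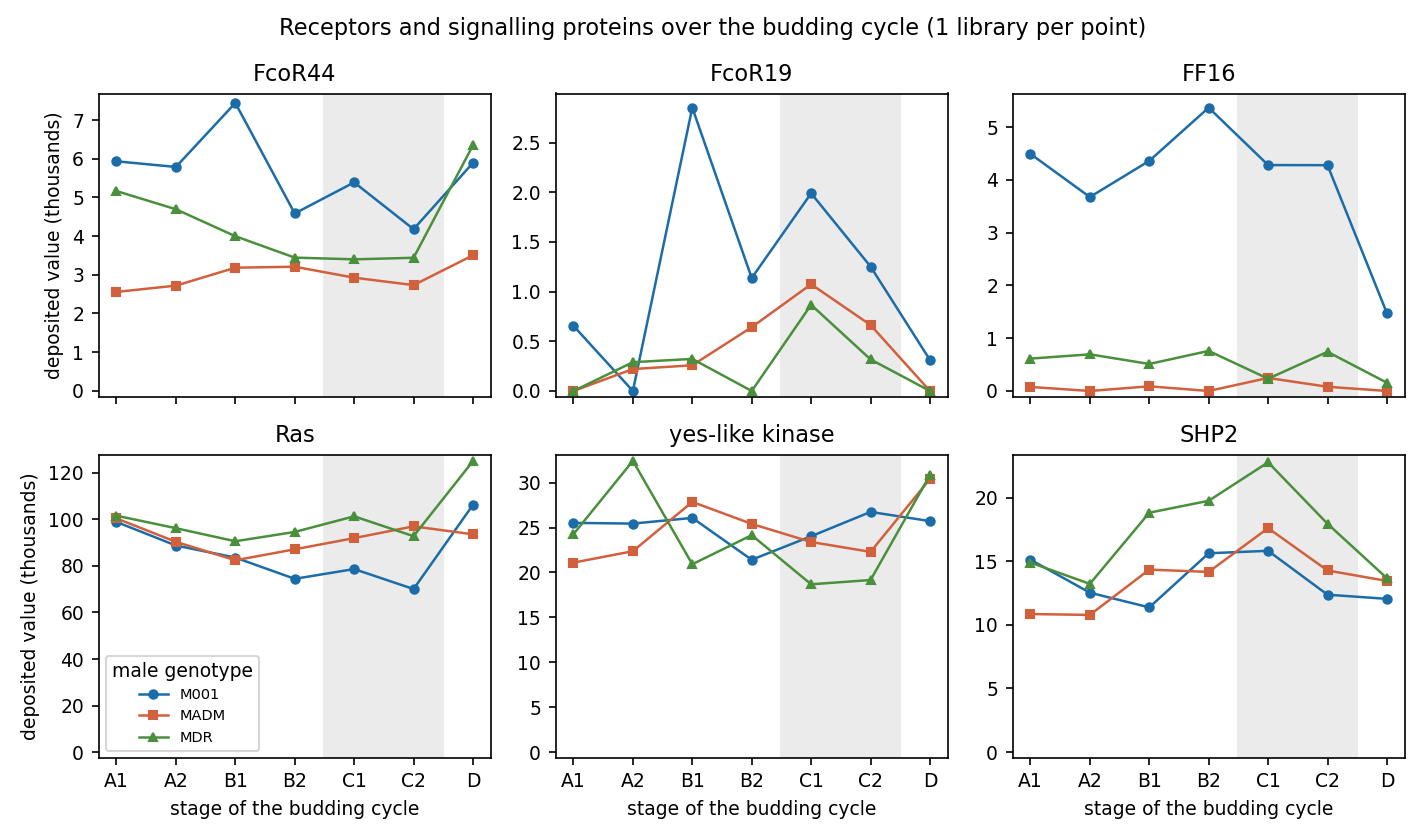
Deposited values in units of 1000 (vertical axes) of 3 receptors and 3 signalling proteins at the 7 stages (horizontal axes), 1 line per male genotype and 1 library per point, with stages C1 and C2 shaded. FcoR44 is above both shaded values in D in each genotype, while FcoR19, FF16 and SHP2 are below them.

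None of the 5 most abundant FcoR passed the test, and they differed in how far D lay from C. FcoR72 had 44223 in D against 39336 and 46133 in C1 and C2 of M001, 21987 in D against 25335 and 25850.02 in MADM, and 41631 in D against 43881 and 42009.7 in MDR, a log2 difference of -0.070 ± 0.13. FcoR48 was lower in D than the C mean in 3 of 3 genotypes, by -0.43 in M001, -0.62 in MADM and -0.22 in MDR (-0.42 ± 0.26, limma adjusted p 0.648). FcoR17 and FcoR5 were held at high level by MADM alone. There FcoR17 had 26537 in D against 25807 and 25178, and FcoR5 had 24222 in D against 23549 and 23322. FcoR41 had 23917 in D against 27999.9 and 30122 in MADM and was low elsewhere, with 375 in D against 911 and 623 in MDR and a listed 0 in D against 472 and 326 in M001. The 9 receptors that earlier results of these data had found in every sample class (FcoR72, FcoR63, FcoR46, FcoR9, FcoR4, FcoR3, FcoR1, FF15 and FF13) had a median log2 difference of -0.041, with none past the test (limma; 0 at an unadjusted p under 0.05). All 9 were lower in D in MADM, against 3 in M001 and 3 in MDR. Most transcripts were lower in MADM: of the 62 held by all 3 genotypes, 47 were lower there, 25 in M001 and 27 in MDR.

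Across the table, D lay above both C libraries in every genotype for 3 of the 107 tested transcripts (2.8%), BHF, FcoR44 and FcoR8, and below both for 8 (7.48%), FuHc-Tm, SHP2, Shc, PAK1, FF16, FcoR9, FcoR19 and FcoR41. The D and C libraries did not overlap at all for 4 (3.74%), FuHc-Tm, BHF, PAK1 and FcoR19. All of these were among the 62 transcripts held by all 3 genotypes. A transcript at 0 in every library of a genotype can lie on neither side there. The shares of 107 therefore include transcripts that could not qualify. FcoR8 and FcoR9 are named only because they complete these counts. FcoR8 had 729.7, 1114 and 603 in D of M001, MADM and MDR, against 239.5 to 657 in the C libraries. FcoR9 had 1317, 2765 and 1288 in D, against 1384 to 3347 in the C libraries.

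The number of receptors with a value of at least 1 was lower in D than in both C libraries for FcoR in M001 and MADM, and higher in MDR. There were 39 FcoR in D against 42 and 42 in M001, 42 in D against 49 and 46 in MADM, and 40 in D against 37 and 37 in MDR. FF counts were 17 in D against 18 and 17 in M001, 21 in D against 21 and 21 in MADM, and 16 in D against 18 and 18 in MDR. Receptors present in both C libraries and listed at 0 in D numbered 4 in M001, 7 in MADM and 2 in MDR, with mean C values between 44.7 and 869. Those listed at 0 in both C libraries and present in D numbered 1 in M001, 0 in MADM and 3 in MDR, with D values between 121 and 352. The patterns ask for different numbers of libraries with a value, so their counts are not a like comparison. FcoR19 was the highest of those listed at 0 in D in both MADM and MDR. Depth could be gauged only by the smallest value of 1 or more per library, which was between 11.2 and 102 in the D libraries and between 13.2 and 86.6 in the C libraries.

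Summed over the family, FF had 96293 in D against 97944 and 85608 in C1 and C2 of M001, 160705 in D against 180882 and 189016 in MADM, and 165361 in D against 174405 and 161302 in MDR. The mean log2 difference was -0.050, with an exact two-sided permutation p of 0.519 within genotypes, where 27 arrangements allow no p below 0.037. FcoR summed to 113585 in D against 108309 and 110288 in M001, 185089 in D against 224798 and 215817 in MADM, and 138746 in D against 148181 and 133797 in MDR, a log2 difference of -0.072 (exact permutation p 0.37). The Fuhc products and signalling proteins together differed by 0.18 (exact permutation p 0.111). Once each library was rescaled to a common sum, the FF total was lower in D by -0.17 and the FcoR total by -0.19, and the Fuhc and signalling total was higher by 0.063, in 3 of 3 genotypes each, with the smallest p the test allows (exact permutation, 0.037). These 3 totals are shares of 1 sum, so they are not separate results. BHF, the transcript with the largest value in all 3 D libraries, is part of the total that was higher. How the totals differ with BHF left out of the sum was not tested. The median log2 difference over single transcripts was -0.11 after rescaling and 0.0074 with BHF left out before rescaling.

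The change from C to D was then compared between the genotypes with an interaction test on the 9 libraries, in which the single D library of a genotype is assumed to vary like the C libraries. It called 4 of 107 transcripts (3.74%), FcoR41, FcoR54, FcoR73 and FcoR61. In each of them a genotype had a listed 0 on one side. FcoR54 had 352 in D against 0 and 0 in M001, and 80.7 in D against 82.2 and 169.96 in MADM. FcoR73 had 232 in D against 0 and 0 in MDR, 794 in D against 431 and 634 in M001, and 651 in D against 889 and 918 in MADM. FcoR61 was listed at 0 in D against 201 and 120.01 in MADM, and had 121 in D against 0 and 0 in MDR. The residual spread of the test came only from C1 against C2 within a genotype. A genotype at 0 in both added none, which can make the p too small. With a pseudocount of 100 in place of 1, the test called 0 of 107 (limma; 15 at an unadjusted p under 0.05). The fifth by p was FF31 (limma adjusted p 0.0601), the transcript held by M001 alone.

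For comparison within stage C, C2 against C1 gave 0 of 107 calls (0%; limma, 2 at an unadjusted p under 0.05, 1.87%). Stage D against the mean of A1, A2, B1 and B2 gave 0 of 107 as well (0%; 6 at an unadjusted p under 0.05, 5.61%), and the smallest p values there were those of BHF and Ras. Ras was higher in D than in A and B by 0.25 ± 0.077 on the log2 scale (limma adjusted p 0.326). HSP40L differed by -0.44 ± 0.18 from A and B (adjusted p 0.764).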

How the data were processed

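RNA of whole male colonies was sequenced from poly-A libraries, per the labels' protocols, which name a pair of extraction kits and of sequencing sites without saying which library went where, so no batch could enter a test. Trim Galore, kallisto and RSEM were used, per the submitters' processing notes, and versions and a genome build are not given in the sources used here. The deposited signal values are read as TMM-scaled TPM made by the authors; TMM is stated by the table and TPM is inferred. Of 158 value columns, 77 match a library of the labels and 81 were not used because no label describes them. Depth per library is unknown, because TPM keeps no read totals, and no interval for counting error can be given. No pair of male libraries held identical values.

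From these values, log2(value + 1) was analysed in R 4.3.3 by limma 3.58.1, letting the variance follow the mean level, and p-values were adjusted by Benjamini and Hochberg over all transcripts tested, at a threshold of 0.05. The fit held the 21 male libraries, genotype and 7 stages, with 12 residual degrees of freedom, and the contrast D minus the mean of C1 and C2. Genotype is given by the labels, and the deviations of libraries of the same genotype correlated at 0.823 to 0.912. Family totals used exact permutation tests. Figures came from matplotlib 3.10.9, and tables from pandas 2.3.3, scipy 1.17.1 and numpy 2.4.6 under Python 3.11.15. The code was tested on simulated data.

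Named transcripts are those past the threshold, otherwise the 5 with the smallest p per direction, the 5 FF and 5 FcoR with the highest mean, all Fuhc products and signalling proteins, the 5 with the smallest p in the genotype difference, and, of the receptors held by 1 genotype with a mean of at least 1000, the 3 with the largest difference in size; exceptions are marked in the text. The comparison, members and lists were chosen with earlier results of these data known. Alternatives covered the pseudocount (10 and 100), the filter, the block, the libraries in the fit, C1 or C2 alone, the scaling, limma's settings and each genotype left out. No sequences or genome positions are given, since 0 names of the table match a symbol of the annotation used.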

Additional observations from a re-analysis of the deposited data

Results flagged for a closer look

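The difference of D minus C varied between the male genotypes for 4 FcoR transcripts, by a test of the interaction of genotype with stage on 9 libraries (limma, 3 residual degrees of freedom). The adjusted p was 0.009717 for FcoR41, 0.009717 for FcoR54, 0.009717 for FcoR73 and 0.009899 for FcoR61. In each, 1 or more genotypes had a listed 0 in D or in both C libraries, and none of the 4 was called with a pseudocount of 100. The residual spread came only from C1 against C2 within a genotype. For FcoR54, FcoR73 and FcoR61, a genotype at 0 in both added none, which can make the p too small. Each genotype had 1 D library. For 32 named transcripts held by all 3 genotypes, the 6 C libraries were also screened for 1 value far from the others, and 0 were found. The screen ignores genotype, with 2 C libraries each, so it does not show that no library deviates within its genotype.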

How the results depend on the processing

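The call count of D against C was 1 as reported and 0 without the replicate block (pairing within genotype), 0 in a fit on the 9 libraries, 0 on 6 values and 0 against C1 only. It was 2 when only transcripts at 1 or more in all 9 libraries were tested (1 higher, BHF), 2 after rescaling to a sum of 1000000 (2 lower), 7 with FcoR72 left out and rescaled (1 higher, BHF, and 6 lower: ERK, FcoR7, FuHc-Tm, PAK1, SHP2 and Shc), and 2 with BHF left out and rescaled (1 higher, Ras). With 1 genotype left out it lay between 0 and 1, all lower, the 1 being FuHc-Tm without M001. D against A and B gave 0 to 1 calls with 1 genotype left out, the 1 being FcoR62, higher without M001. The genotype difference gave 4 calls, but 0 with a pseudocount of 100. The filter of all 9 libraries gave 0 by construction, since it removes all 4, each with a listed 0, before testing. The causes of the other changes were not tested. Leaving out BHF or the M001 D library was added after the data were seen. Rescaling moved the median of all tested transcripts to -0.11 on the log2 scale, and leaving out MADM moved it to 0.12.

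The FF total of -0.050 was -0.17 after rescaling and -0.18 with FcoR72 left out, both past the threshold, and -0.11 to 0.026 with 1 genotype left out. The FcoR total of -0.072 was -0.19 in both rescaled settings and -0.14 to 0.017 with 1 genotype left out. The Fuhc and signalling total of 0.18 was 0.063 and 0.055 in these settings, and -0.014 as a mean of log2 values. No total was run with BHF left out of the sum. Without the replicate block the exact permutation p was 0.714 for FF, 0.786 for FcoR and 0.0833 for the Fuhc and signalling total (84 arrangements, smallest p 0.0119).

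Of the named transcripts, 19 that had not passed changed sign under an alternative (log2 differences of D minus C). Against C1 only, these were FF7 -0.11, FF3 -0.15, FuHc-Sec -0.13, NF-kB -0.056, SYK 0.020, PLC-g 0.10 and Sos -0.045. Against C2 only, these were FF4 0.035, VAV -0.028, Grb2 -0.057, NFAT -0.081 and Rac 0.0015. Rescaled, these were FF7 -0.12, FuHc-Sec -0.022, VAV -0.11, NF-kB -0.081, Grb2 -0.11, NFAT -0.058 and Sos -0.11. With FcoR72 left out, these were FF7 -0.12, FuHc-Sec -0.030, VAV -0.12, NF-kB -0.088, Grb2 -0.12, NFAT -0.065 and Sos -0.12. With BHF left out, these were SYK 0.028 and PLC-g 0.028. Centred on the median, these were SYK 0.016 and PLC-g 0.015. With the M001 D library left out, these were FF7 -0.18, FcoR17 0.051, FcoR5 -0.11, VAV -0.046, NF-kB -0.11, Grb2 -0.043, SYK 0.052, Rac 0.0097 and Sos -0.081. With 1 genotype left out, the ranges were -0.15 to 0.056 for FF4, -0.14 to 0.096 for FF7, -0.23 to 0.45 for FF3, -0.13 to 0.0047 for FcoR72, -1.96 to 0.029 for FcoR17, -0.18 to 0.30 for FuHc-Sec, -0.096 to 0.16 for VAV, -0.13 to 0.033 for Raf, -0.052 to 0.085 for NF-kB, -0.12 to 0.12 for Grb2, -0.0004 to 0.44 for PKC, -0.21 to 0.19 for SYK, -0.29 to 0.39 for NFAT, -0.079 to 0.021 for Rac, -0.25 to 0.35 for PLC-g, -0.081 to 0.13 for Sos, -0.27 to 3.96 for FcoR54 and -4.10 to 3.00 for FcoR61.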
